A study of Mus musculus with 12 samples.

Results

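The granzymes and cytotoxic NK-type genes were followed here in ILC3s (group 3 innate lymphoid cells) sorted from the mouse small intestine. These are 10 named genes of the 23284 in the table: the granule proteins Gzma, Gzmb, Prf1 and Nkg7, the death ligand Fasl, the receptors Klrd1, Klrk1 and Ncr1, the transcription factor Eomes and the chemokine Ccl5. They were taken as a named list, with no threshold on their values, though earlier results of these data were known when it was made. The mice were HR-1 hairless mice of 18 weeks, nursed on milk high in palmitic acid (PA milk) or on the milk of dams on a normal diet (ND). By the paper's account, pups of ND dams were moved to dams on the palmitic acid diet to give the PA milk group. No such move is described for ND. After weaning the offspring ate normal diet. ILC3s were taken from the intraepithelial layer (IEL) and from the lamina propria (LP), with 3 libraries each for PA IEL, ND IEL, PA LP and ND LP, 12 in all. No group carried an engineered allele in the labels. Per the study's methods, the sort took lineage-negative, CD4+, Thy1.2+, CD25+, Nrp1+ cells (a legend names CD45 in place of CD4), and cDNA was amplified from low input. The labels do not say whether the libraries came from separate mice, so p-values measure the spread between these libraries, which may be technical.

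Cytotoxic lymphocytes kill by releasing granules. Perforin (Prf1) opens pores in the target's membrane and granzymes, which are serine proteases, enter and trigger cell death, while Fas ligand (Fasl) engages the death receptor Fas at the surface. NK cells, group 1 ILCs and intraepithelial CD8 T cells are the cells best known for these genes, and NK receptors such as NKp46 (Ncr1) and NKG2D (Klrk1) are also carried by a subset of gut ILC3s. Granzyme B has also been found in mast cells, and the granules of mucosal mast cells hold the related proteases Mcpt1 and Mcpt2.

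The granzyme promoters are shown because Gzma and Gzmb were high in the same libraries, and that of Nkg7 because its level took another course. Each line gives the 150 bases before the start site that RefSeq gives on GRCm38.p6, 5′ to 3′ on the gene's strand, with motif matches in capitals. The Gzma stretch lies at chr13:113100982-113101131 on the minus strand, that of Gzmb at chr14:56262335-56262484 on the minus strand and that of Nkg7 at chr7:43436988-43437137 on the plus strand.
Gzma: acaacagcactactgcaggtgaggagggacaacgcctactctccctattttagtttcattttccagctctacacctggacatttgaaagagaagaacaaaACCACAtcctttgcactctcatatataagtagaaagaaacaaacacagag
Gzmb: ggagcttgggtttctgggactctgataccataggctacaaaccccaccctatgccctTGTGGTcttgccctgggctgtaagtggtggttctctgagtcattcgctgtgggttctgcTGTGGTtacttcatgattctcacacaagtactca
Nkg7: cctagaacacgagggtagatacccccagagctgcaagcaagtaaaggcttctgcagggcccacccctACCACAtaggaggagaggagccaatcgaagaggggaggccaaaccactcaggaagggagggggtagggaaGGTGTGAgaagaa
The capitals mark the RUNX motif, whose letters are TGTGGT on one strand. In Nkg7 the second run of capitals is the T-box motif, TCACACC on one strand, which begins at -13 from the start site. A match on the other strand is shown as its reverse complement. The RUNX motif begins at -50 in Gzma, at -93 and -34 in Gzmb and at -83 in Nkg7. Over windows from 250 bases before to 50 after the start, searched on both strands, the RUNX motif was in 7 of 9 windows of the members and in 16.8% of 32851 windows in all. The 9 windows belong to 8 members, since Ncr1 has 2 overlapping ones. Fasl and Eomes had no RUNX match. The T-box motif was in 1 of the 9 windows (Nkg7) and in 3.98% of all. No RUNX match overlapped a T-box match. A match describes the letters of the window and is not a bound site.

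Values are FPKM (sequenced fragments scaled to transcript length and library size) as deposited, so levels of different genes are compared per length. The 12 libraries held 8.79 to 14.6 M reads, recovered from the steps in the deposited counts, and 4390 to 11378 genes at 1 FPKM or more. PA IEL 2 (4390 genes), PA LP 2 (5637) and ND IEL 2 (7863) held the fewest. In PA IEL 2, 0 of 13 ILC3 marker genes reached 1 FPKM and their sum was 0.657 FPKM, and in PA LP 2, 2 of 13 did, with a sum of 12.5 FPKM. In the other 10 libraries the sum was 78.6 to 4934 FPKM. Markers of other cells were present: the epithelial markers summed to 305 to 73692 FPKM, highest in ND IEL 2.

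Of the 120 values of the members, 55 were 0 and 55 were 1 FPKM or more. A value of 0 in amplified low-input cDNA does not show that the gene was off, and 63 values lay at or under 3 reads, the limit that a count of 0 allows for counting error alone. Nkg7 exceeded 1 FPKM in all 12 libraries, and Eomes was 0 in all 12. The number of members at 1 FPKM or more was 9 in ND IEL 1, 8 in ND IEL 3 and 8 in PA LP 3, and 1 to 5 in the other libraries. The members' sum was 0.190% and 0.223% of all FPKM in ND IEL 1 and ND IEL 3, and 0.00634% to 0.0974% elsewhere. The plot of the members by library shows how few libraries held each gene.

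**Figure D1:**
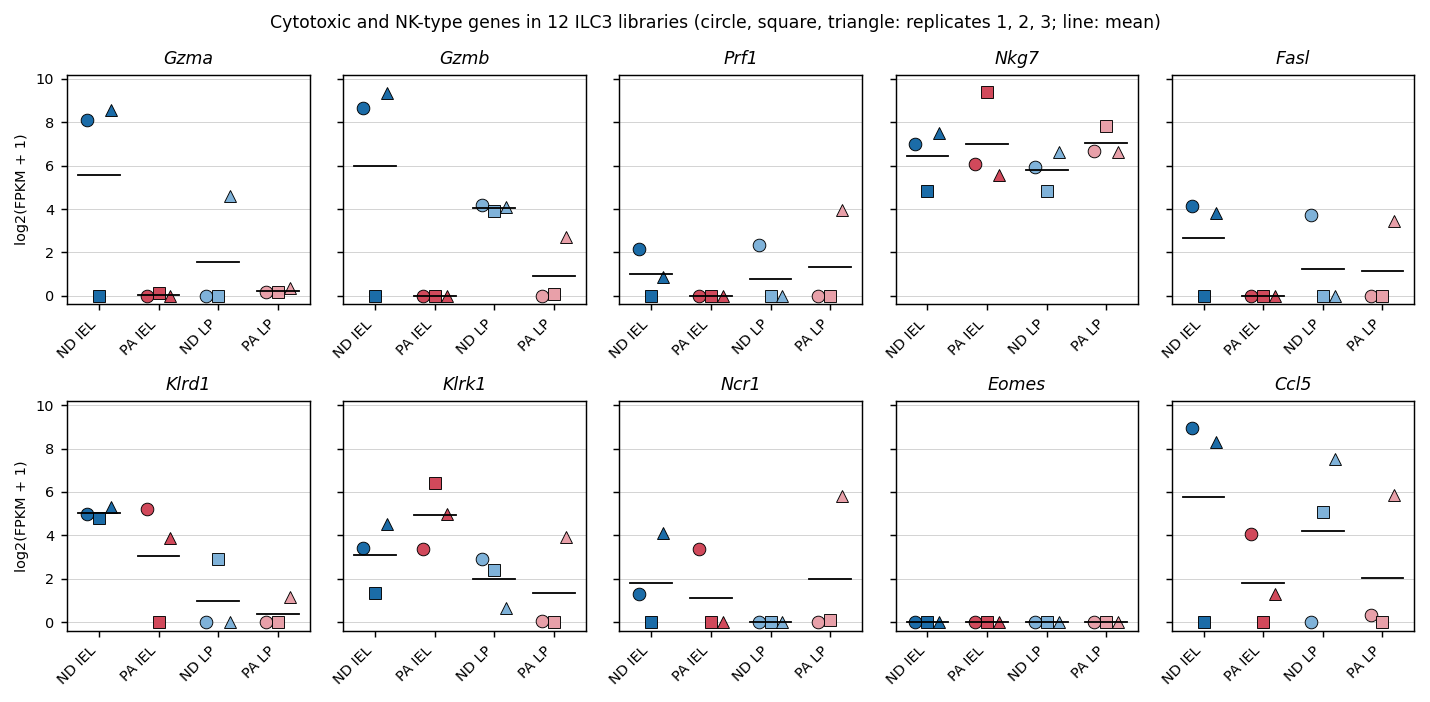
FPKM of the 10 genes in each library, on a log2(FPKM + 1) axis, by group, with a circle, square or triangle for replicate 1, 2 or 3 and a line at the mean of the 3 log2 values. Gzma and Gzmb stand high in ND IEL 1 and 3 (273 to 649 FPKM) and at 0 in ND IEL 2, whereas Nkg7 lies between 27.1 and 672 FPKM in every library.

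Granzyme A (Gzma, a tryptase of cytotoxic granules, on chromosome 13 at chr13:113093825-113100981) was listed in ND IEL at 273, 0 and 375 FPKM for replicates 1, 2 and 3. In PA IEL it was at 0, 0.109 and 0, in ND LP at 0, 0 and 23.6, and in PA LP at 0.116, 0.136 and 0.273 FPKM. ND IEL 1 and 3 stood alone at the top, followed by ND LP 3, and every other value came from 2 reads or fewer. ND IEL 1 and 3 gave 2848 and 3881 of the 6898 Gzma reads, or 97.6%. The groups overlapped in both layers, because ND IEL 2, ND LP 1 and ND LP 2 were at 0.

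Granzyme B (Gzmb, which cleaves after aspartate and activates caspases, at chr14:56258838-56262260) was listed in ND IEL at 407, 0 and 649 FPKM and at 0 in all 3 PA IEL libraries. In ND LP it was at 17.0, 14.2 and 15.9 (15.7 ± 1.39 FPKM, SD, n = 3) and in PA LP at 0, 0.0755 and 5.45 FPKM. By group mean the order was ND IEL, ND LP, PA LP and PA IEL. ND IEL overlapped ND LP through its replicate 2, ND LP lay wholly above PA LP, and PA LP overlapped PA IEL at 0. Gzmb in ND IEL 1 and ND IEL 3 was at least 1609-fold and 2567-fold above the highest level that 3 reads would give in a PA IEL library (0.253 FPKM). These libraries gave 7649 and 12128 of 20552 Gzmb reads, or 96.2%. The bound of 3 reads covers counting error alone. ND IEL 2, of the same diet, was also at 0, so the folds do not measure a diet difference.

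Perforin (Prf1, at chr10:61297833-61304680) was low wherever it was read, with a highest value of 14.4 FPKM in PA LP 3. It was at 4.06 in ND LP 1, 3.52 in ND IEL 1 and 0.809 FPKM in ND IEL 3, and at 0 in the other 8 libraries. ND IEL 3, with 649 FPKM of Gzmb, thus had under 1 FPKM of Prf1, and its highest library, PA LP 3, held 5.45 FPKM of Gzmb. Fasl (chr1:161780689-161788495) was above 0 in 4 libraries: 16.6 and 13.2 FPKM in ND IEL 1 and 3, 12.2 in ND LP 1 and 9.98 in PA LP 3. Those are the same 4 libraries in which Prf1 was read.

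Nkg7, a membrane protein of cytotoxic granules at chr7:43437073-43438249, was the highest member in 8 libraries, Ccl5 in 3 and Gzmb in 1. It was at 65.6, 672 and 46.2 FPKM in PA IEL and at 129, 27.5 and 183 in ND IEL. In LP it was at 103, 228 and 97.2 with PA milk and at 59.7, 27.1 and 97.2 FPKM with ND. PA IEL 2 and PA LP 2, the libraries with the fewest genes and nearly no ILC3 or T cell markers, held its 2 highest values. All neighbouring groups overlapped.

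Among the receptors, Klrd1 (CD94, the partner of the NKG2 receptors, at chr6:129591782-129598775) was at 31.1, 27.1 and 39.0 FPKM in ND IEL (32.4 ± 6.02, SD, n = 3). It was at 36.4, 0 and 13.9 in PA IEL, at 0, 6.59 and 0 in ND LP and at 0, 0 and 1.25 FPKM in PA LP. Apart from PA IEL 2, every IEL library lay above every LP library, and the share of all genes that do so without PA IEL 2 was not counted. With all 12 libraries the layers overlapped for each of the 9 members tested. Of all genes tested, 0.632% lay wholly higher and 0.608% wholly lower in IEL. Klrk1 (NKG2D, the activating receptor for stress-induced ligands, at chr6:129610323-129623864) was at 9.39, 83.9 and 30.3 FPKM in PA IEL and at 9.82, 1.56 and 22.0 in ND IEL. In LP it was at 0.0264, 0 and 14.4 with PA milk and at 6.42, 4.22 and 0.587 FPKM with ND, so that both pairs of diet groups overlapped. Ncr1 (NKp46, an activating receptor of NK cells and of a subset of ILC3s, at chr7:4337724-4345164) reached 55.7 FPKM in PA LP 3, 16.1 in ND IEL 3, 9.45 in PA IEL 1 and 1.49 in ND IEL 1. It was at 0.0726 FPKM or 0 in the other 8.

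Eomes, the T-box factor of conventional NK cells (chr9:118478212-118486132), had 0 reads in each of the 12 libraries, which allows up to 3 reads in each. Klrb1c, which encodes the NK1.1 antigen of NK cells, was at 0 in 6 libraries and at 1.47 to 6.73 FPKM in the others. Ccl5 (RANTES, a chemokine stored by cytotoxic lymphocytes, at chr11:83525778-83530518) was at 490.0, 0 and 316 FPKM in ND IEL and at 15.5, 0 and 1.47 in PA IEL. It was at 0, 32.7 and 183 in ND LP and at 0.241, 0 and 56.6 FPKM in PA LP. ND IEL 1 and 3 were again highest, followed by ND LP 3, and each of the 4 groups had a library at 0, so that all groups overlapped.

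PA milk was set against ND to ask how milk high in palmitic acid bears on ILC3s of the gut. In IEL, both granzymes and Ccl5 were split within ND itself, high in replicates 1 and 3 and at 0 in replicate 2, while with PA milk Gzmb, Prf1 and Fasl were at 0 in all 3 libraries and Ccl5 did not exceed 15.5 FPKM. Klrk1 and Nkg7 had higher group means with PA milk. In this comparison limma called 0 of 12502 genes (0%) at an adjusted p-value of 0.05, and 447 had an unadjusted p-value under 0.05, and limma-voom on recovered reads called 0 as well. All fold changes below are differences in log2(FPKM + 1). Of the 9 members tested, 7 were negative and 2 positive, with a median of -2.01, beside a median of -0.30 over all genes tested, of which 38.0% were positive. The differences were -6.01 for Gzmb (SE 1.87, unadjusted p = 0.0056), -5.50 for Gzma (SE 1.83, unadjusted p = 0.00847), -3.97 for Ccl5 and -2.65 for Fasl in limma. Klrk1 was at 1.81 and Nkg7 at 0.54. In limma the adjusted p-values of the 9 members were 0.947 to 0.997, so no member passed once p-values were adjusted over all 12502 genes. Gzma was tested on the strength of 3 ND libraries alone, ND IEL 1, ND IEL 3 and ND LP 3, the least the filter admits.

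The size of these differences depended on which ND IEL libraries entered the fit. Without ND IEL 2 the Gzmb difference was -9.01 with an adjusted p of 0.0576 in limma, and without ND IEL 3 it was -4.34. Gzma ranged from -8.28 without ND IEL 2 to -4.00 without ND IEL 3. Without PA IEL 2 and PA LP 2, Gzmb kept -6.01 and Gzma had -5.55, while Nkg7 went from 0.54 to -0.65 and Klrd1 from -2.01 to -0.49.

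Some markers of other cells, though not all, were high in the libraries with high granzymes, as the plot beside the marker sums shows. The mast cell list (7 genes) summed to 433 and 891 FPKM in ND IEL 1 and 3, with 6 and 5 genes at 1 FPKM or more, to 20.5 in ND IEL 2 and to 0.328 to 9.91 FPKM in PA IEL. Its protease genes Mcpt1 (235 and 472 FPKM) and Mcpt2 (86.6 and 253 FPKM) belonged to ND IEL 1 and 3, and both were at 0.481 FPKM or less in the other 10 libraries. Tpsb2, another gene of the list, went the other way, at 0 in ND IEL 1 and 3 and highest in PA IEL 1 (9.64 FPKM). Fcer1a, the high-affinity IgE receptor chain, was at 43.9 and 78.4 FPKM in ND IEL 1 and 3, at 11.4 in ND LP 1 and at 0 in the other 9. Fcer1a thus passed the filter through ND libraries alone, which favours a negative diet difference. In LP the list summed to 0.306 to 282 FPKM, with Hdc at 261 FPKM in PA LP 1 and 165 in PA LP 3. In ND IEL 1 and 3, Hdc was only at 1.54 and 0.0598 FPKM. The T cell list (12 genes) summed to 302 and 686 FPKM in ND IEL 1 and 3, to 31.7 in ND IEL 2, to 0.188 to 227 in PA IEL, to 201 to 482 in ND LP and to 0.325 to 410 FPKM in PA LP. Cd3g was at 102 and 118 FPKM in ND IEL 1 and 3 and at 0, 0 and 11.1 FPKM in PA IEL, and Cd8b1 was at 41.9 and 101 FPKM there and at 129 FPKM in PA IEL 1, where Gzma and Gzmb were at 0. By diet in IEL, the fitted differences were negative for 3 of 4 tested mast cell genes (median -2.51), 10 of 11 T cell genes (-1.93), 11 of 12 epithelial genes (-2.19) and 3 of 5 B and plasma cell genes (-0.35). They were positive for 9 of 13 ILC3 genes (median 0.61) and 5 of 7 myeloid genes (0.64), among them S100a8 (2.12) and S100a9 (2.84), calcium-binding proteins of neutrophils. None of these genes passed in limma. The part of RNA of these cells in the granzyme values was not tested. In these bulk samples, fewer cells of a type and less RNA per cell cannot be told apart.

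**Figure D2:**
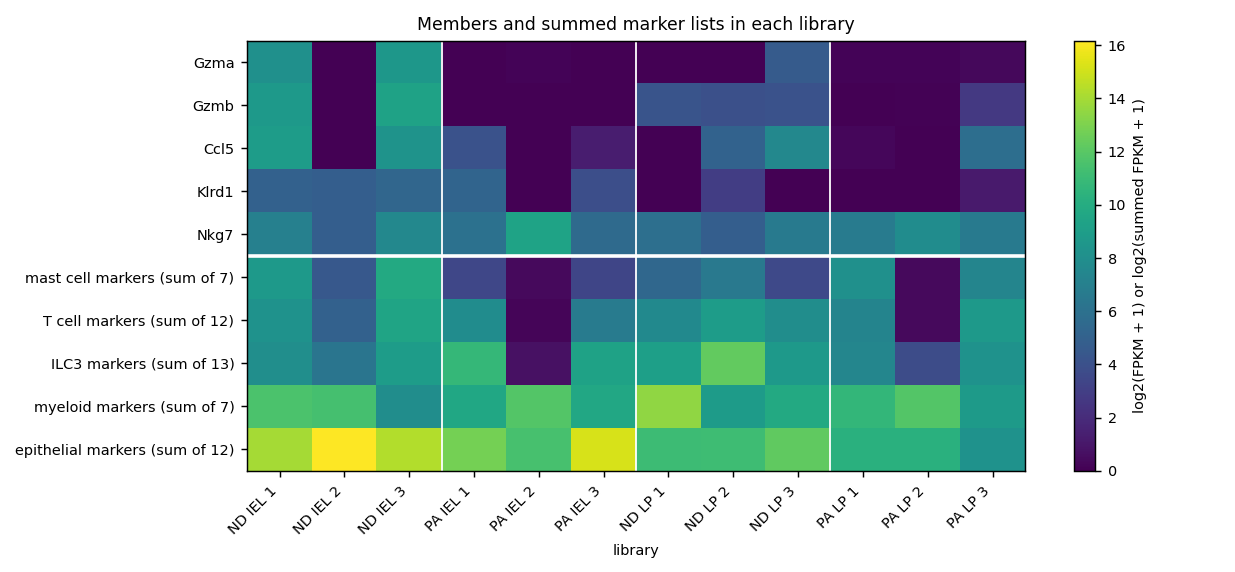
Heat map of 5 members (log2(FPKM + 1), above the white line) and of 5 marker lists (log2 of the summed FPKM + 1, below it) in the 12 libraries, in blocks of ND IEL, PA IEL, ND LP and PA LP. ND IEL 1 and 3 share high Gzma, Gzmb and Ccl5 values and high mast cell marker sums. PA IEL 2 and PA LP 2 have sums under 1 FPKM for mast cell and T cell markers beside Nkg7 at 672 and 228 FPKM.

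In LP, Gzmb was at 14.2 to 17.0 FPKM with ND and at 5.45 FPKM or less with PA milk, and for the other members the groups overlapped. In PA LP, replicate 3 held 8 members at 1 FPKM or more and replicates 1 and 2 held Nkg7 alone. For this comparison limma called 0 genes (0%), with 588 at an unadjusted p under 0.05, and limma-voom called 3, none a member. The 9 members had a median difference of -0.58, with 6 negative, beside -0.36 and 37.4% positive over all genes tested. Gzmb was at -3.13 (SE 1.87), Ccl5 at -2.15 and Gzma at -1.31, and Ncr1 was at 1.98 and Nkg7 at 1.27, with adjusted p-values of 0.979 to 1 over the 9 members in limma. Gzmb was the only member of the 9 whose 3 PA LP values all lay below its 3 ND LP values, and 6.6% of the genes tested (825) did the same. The reverse, 3 PA LP values all above ND LP, held for 0 of the 9 members and for 2.97% of the genes tested (371). Single libraries set several of these values: without PA LP 3, Ncr1 went from 1.98 to 0.05 and Prf1 from 0.53 to -0.78, and without ND LP 3, Gzma went from -1.31 to 0.23 and Ccl5 from -2.15 to -0.48. The B and plasma cell list had 5 of 5 tested genes negative in LP (median -4.45), the epithelial list 12 of 12 (-2.07), the ILC3 list 12 of 13 (-1.84), the T cell list 10 of 11 (-1.84) and the mast cell list 3 of 4 (-0.77), while the myeloid list had 5 of 7 positive (median 0.71). None of these genes passed in limma. The part of these cells in the member values was not tested.

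For the difference of the diet effect between the layers (LP minus IEL), limma called 0 genes (0%), with 292 at an unadjusted p under 0.05, and limma-voom called 0. Its member values were 4.19 for Gzma (SE 2.59), 2.88 for Gzmb (SE 2.65), 2.65 for Ncr1, 2.57 for Fasl and -2.47 for Klrk1, with an adjusted p of 1 in limma for each member. The diet differences of IEL and LP were thus not shown to differ for any member.

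**Figure D3:**
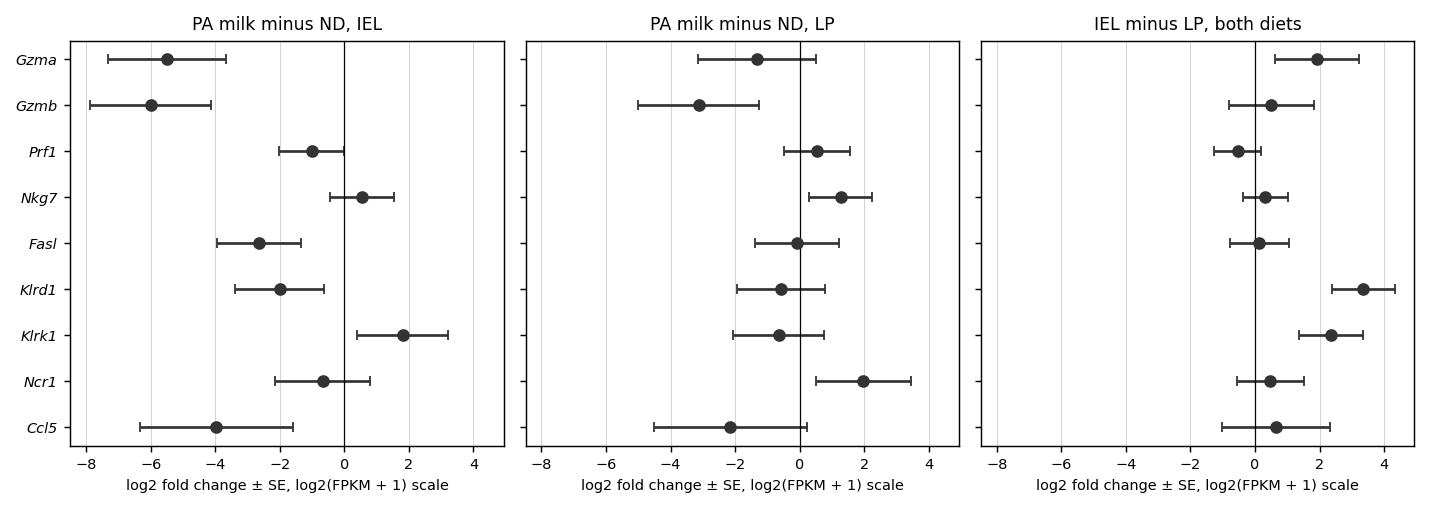
Fitted log2 fold change with its standard error (limma, log2(FPKM + 1) scale) for the 9 tested members: PA milk minus ND in IEL, PA milk minus ND in LP, and IEL minus LP over both diets. Gzmb and Gzma lie at -6.01 and -5.50 in IEL, and Klrd1 lies at 3.36 between the layers, and none passed the threshold with all 12 libraries.

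The members with the largest differences between the layers were the receptors Klrd1 and Klrk1. Klrd1 was at 13.9 to 39.0 FPKM in 5 of 6 IEL libraries and at 6.59 FPKM or less in the 6 LP libraries, and Klrk1 was at 1.56 to 83.9 FPKM in IEL and at 14.4 FPKM or less in LP. Between the layers, limma called 110 of 12502 genes (0.88%), 58 higher and 52 lower in IEL, and 0 of the 9 members. Klrd1 had the largest member difference, 3.36 (SE 0.97, unadjusted p = 0.0032), with an adjusted p-value of 0.115 in limma. Klrk1 was at 2.36 (SE 0.995, unadjusted p = 0.031, adjusted p = 0.313 in limma) and Gzma at 1.92 (SE 1.29). Prf1 alone was negative (-0.54), and the members' median was 0.51, beside -0.08 and 46.6% positive over all genes tested.

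The Klrd1 call turned on the library PA IEL 2, in which it was at 0. Without PA IEL 2, Klrd1 was at 4.12 with an adjusted p of 0.021 in limma, in a fit that called 250 genes (2%). Without both PA IEL 2 and PA LP 2 it was at 4.02 with an adjusted p of 0.011, in a fit that called 826 genes (6.61%), and the other 8 members were not called. Over the 12 fits that each left out 1 library, Klrd1 stayed between 2.81 and 4.12 and Klrk1 between 1.99 and 3.01. Within the diets, Klrd1 was at 4.07 in the ND libraries and at 2.65 in the PA libraries, whereas Gzma was at 4.01 in ND and -0.18 in PA and Gzmb at 1.95 and -0.93. Epithelial markers moved with the layer, with 5 of 12 called higher in IEL and 0 lower. In the T cell list, 3 of 11 tested genes were higher in IEL and 8 lower (median -0.93). Its gene Cd8b1 had a difference of 3.92 with an adjusted p of 0.151 in limma. Cd8b1 reached 1 FPKM in IEL libraries alone and so passed the filter only through them, which favours a positive difference. The part of these marker genes in the Klrd1 difference was not tested.

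**Figure D4:**
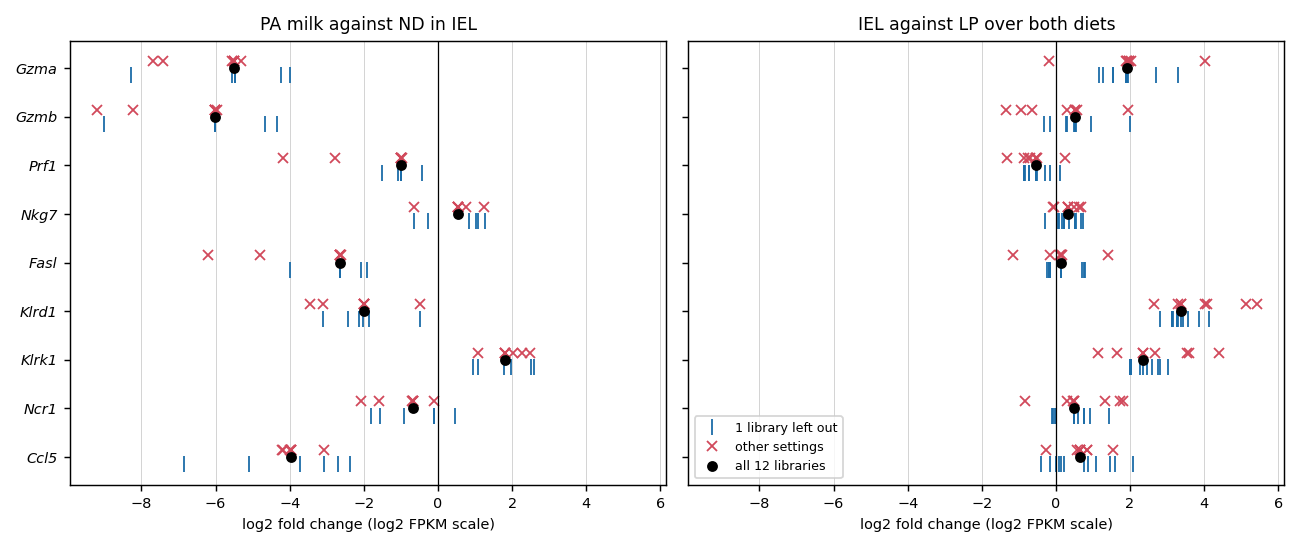
Log2 fold change of the 9 tested members for PA milk against ND in IEL and for IEL against LP, with all 12 libraries (black), with 1 library left out (blue ticks) and under the other settings (red crosses). Klrd1 and Klrk1 stay positive between the layers in every fit, while Gzmb and Gzma stay negative in IEL but spread from -9.19 to -4.34 and from -8.28 to -4.00.

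Beyond the members, 76 further genes of cytotoxicity were listed, of which 75 were in the table and 54 were tested. None passed in any of the 4 comparisons in limma. Of the other granzymes, Gzmd, Gzme, Gzmf, Gzmg and Gzmn were at 0 in all 12 libraries, Gzmk was read only in ND IEL 3 (4.22 FPKM) and Gzmm only in PA LP 3 (6.53 FPKM). Gzmc, a neighbour of Gzmb in the granzyme cluster, was at 29.2 and 30.2 FPKM in ND IEL 1 and 3, at 10.3 and 8.88 in ND LP 2 and 3, and at 0.126 FPKM or less elsewhere.

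The positions of the granzymes on the genome were looked up as well. On GENCODE vM21 (GRCm38), Gzmb, Gzmc, the 5 granzymes at 0 and the proteases Mcpt1, Mcpt2, Mcpt4, Cma1, Cma2 and Ctsg, 13 genes in all, lie within 320.8 kb of chromosome 14. Mcpt4, a chymase of connective tissue mast cells, was at 10.6 and 19.4 FPKM in ND IEL 1 and 3 and at 0 in the other 10 libraries. Cma2 was at 44.7 and 97.9 FPKM in ND IEL 1 and 3, at 4.15 in PA IEL 1 and at 0.107 FPKM or 0 elsewhere. In this cluster Gzmc, Mcpt1, Mcpt2, Mcpt4 and Cma2 had the same 2 highest libraries as Gzmb. The share of all genes with these 2 highest libraries was not counted, so no link to position can be read from this. Cma2 is also one of the 3 genes nearest Gzma by pattern over these same libraries. Ctsg, a protease of neutrophil granules in the same cluster, took the opposite course, with its 2 lowest values in ND IEL 1 and 3 (2.68 and 2.21 FPKM) and 4.47 to 73.0 FPKM elsewhere. Mcpt4, Cma1 and Ctsg were looked up after the values of the others had been seen. Gzma lies on another chromosome and had the same 2 highest libraries. How reads that fit several granzymes were assigned is not given in the sources used here. Klrd1 and Klrk1 lie 11.5 kb apart on chromosome 6, in the cluster of lectin-like NK receptors. Klrd1 was above 0 in 7 of the 12 libraries and Klrk1 in 11, so that their overlap in 7 was nearly forced. In PA IEL 2, the highest library of Klrk1 (83.9 FPKM), Klrd1 was at 0.

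In IEL the listed genes with the smallest unadjusted p-values were Il12rb2 (-3.59), a chain of the IL-12 receptor, Gzmc (-3.29) and Ifng (-2.93), which encodes interferon gamma. Gzmc reached 1 FPKM in ND libraries alone and so passed the filter only through them. Its negative difference was favoured by that selection and is a description only. Ifng was at 14.2 and 28.2 FPKM in ND IEL 1 and 3 and at 22.2 in PA LP 3, and at 0 in the other 9 libraries. Tbx21, which encodes the type 1 factor T-bet, was read in the same 3 libraries, at 10.3, 8.42 and 24.8 FPKM. In LP they were Serpinb6b (-3.74), a serpin that inhibits granzymes, Ccl4 (-5.03), a chemokine, and Cd247 (-3.10), the zeta chain that signals for the T cell receptor and NKp46. For the difference of the diet effect between the layers they were Ifng (4.45), Il12rb2 (3.58) and Tbx21 (3.81). Ifng and Tbx21 passed the filter only through ND IEL 1, ND IEL 3 and PA LP 3. High values in these libraries raise this difference, so the positive values of Ifng and Tbx21 were favoured by that selection and are descriptions only. Between the layers they were Tyrobp (1.52), the adaptor DAP12, Klrg1 (-2.12), an inhibitory receptor, and Rab27a (-2.17), which docks granules at the membrane. Klrg1 reached 1 FPKM in LP libraries alone, so its negative difference was favoured by the filter and is a description only.

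The groups of listed genes gave counts without calls. Of the 10 tested genes of granule loading, release and protection, 8 were negative between the layers, 6 in IEL by diet and 7 in LP by diet, with medians of -0.38, -0.12 and -0.73. The 12 cytokine, chemokine and receptor genes had medians of -0.04, -1.22 and -0.30, the 7 transcription factors -0.28, -1.53 and -1.44, and the 6 inhibitory NK receptors 0.06, 0.44 and -1.33, in the same order. All genes tested had medians of -0.08, -0.30 and -0.36. Srgn, the proteoglycan that packs granzymes into granules, was at 141 to 1208 FPKM in every library, and Ctsc, which activates granzymes by cutting their propeptide, at 46.2 to 323 FPKM.

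The genes whose pattern over the 12 libraries was most like each member were found by the mean absolute difference of centred log2(FPKM + 1), among 12493 other genes. For Gzma they were Ccl20 (1.08), Gzmc (1.14) and Cma2 (1.21), and its distance to Gzmb was 1.29, beside a mean absolute deviation of Gzma itself of 2.62. For Gzmb they were Gimap7 (1.21), Cd6 (1.22) and Clps (1.33), and for Ccl5 Dnaja3 (1.47), Agmat (1.499) and Gimap7 (1.52). For Klrd1 they were Gjb1 (0.73), 2010001E11Rik (0.73) and Smpdl3b (0.73), and for Klrk1 Slc35d2 (0.63), Wfs1 (0.69) and Sh2d3c (0.70). Prf1 lay nearest Gm9054 (0.19), Osbpl10 (0.23) and Card9 (0.30), Fasl nearest Ap4m1 (0.47), Kynu (0.50) and Arl11 (0.53), and Ncr1 nearest Gm19705 (0.32), Ak8 (0.42) and Tnfrsf17 (0.43). Nkg7 lay nearest Gigyf2 (0.44), Mki67ip (0.50) and Ddx23 (0.50), and its distance to Gzmb was 2.90. Prf1 lay at 2.51 from Gzma and at 2.52 from Gzmb. These distances are descriptions over 12 points, several of them at 0 for many genes.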

How the data were processed

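The authors mapped reads with TopHat2 2.1.1 and Bowtie2 2.2.8.0 and quantified genes with Cufflinks 2.2.1 on mm10, tools named in the submitters' processing notes, and deposited FPKM values for 23284 genes in 12 libraries. They also deposited a count table whose values are a scaled signal, counts divided by a factor per library and rounded. Reads were recovered from its step per library (0.683 to 1.08), with 91.2% to 99.0% of low values within 0.05 of a whole multiple.

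limma 3.58.1 (R 4.3.3), with a mean-variance trend, was fitted to log2(FPKM + 1) with 4 group means over all 12 libraries, for the 12502 genes at 1 FPKM or more in at least 3 libraries, and p-values were adjusted by Benjamini-Hochberg over all of them. An FDR of 0.05 was the threshold. Fold changes on this scale understate those of low genes. Eomes did not pass the filter. The members, gene lists and tests were chosen with earlier results of these data known. By rule, the text names the members, the 3 genes nearest each, and of the other listed genes those past the threshold or, with none, the 3 of smallest p per comparison. Other genes named (Gzmk, Gzmm, Srgn, Ctsc and single markers) were picked after their values were seen. The values of 1 marker gene are not reported here. Alternatives were no filter, a pseudocount of 0.1, upper quartile scaling, limma-voom on recovered reads, fits within a layer or diet, the replicate block and leaving out libraries. The fits were tested on simulated data with normally distributed noise and without the many zeros of these libraries. That test therefore does not cover members that were unread in many libraries. Sequences came from RefSeq promoters on GRCm38.p6 (none for Klrd1 and Ccl5), gene positions from GENCODE vM21 on GRCm38, and tables were made with Python 3.11.15.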

Additional observations from a re-analysis of the deposited data

How the results depend on the processing

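Each of the 36 member values was recomputed under every alternative, 576 values in all, of which 530 kept their direction and their side of the threshold, 2 passed it (Klrd1 between the layers, without PA IEL 2 and without the 2 libraries with the fewest genes) and 44 changed sign. 19 of the 36 never changed sign, among them Gzma and Gzmb for diet in IEL and Klrd1 and Klrk1 between the layers. Gzmb was at 0 and Gzma at 0.109 FPKM or less in every PA IEL library. Their signs in IEL could therefore hardly change, and the lack of change says little. The cause of the sign changes was not tested. With only the PA libraries, the changed values were Ccl5 -0.27, Fasl -1.15, Gzma -0.18, Gzmb -0.93, Ncr1 -0.85 and Nkg7 -0.0473 between the layers. Without the 2 libraries with the fewest genes, the changed values were Fasl -0.16 and Nkg7 -0.0876 between the layers, Nkg7 -0.65 for diet in IEL and Fasl 0.49 and Klrk1 0.0102 for diet in LP. With a pseudocount of 0.1, the changed value was Gzmb -0.64 between the layers. With limma-voom on recovered reads, the changed value was Gzmb -1.35 between the layers. With only the ND libraries, the changed value was Prf1 0.23 between the layers. 

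Leaving out each library in turn gave changed signs within these ranges of log2 fold change. The range between the layers was -0.41 to 2.08 for Ccl5, -0.24 to 0.80 for Fasl, -0.33 to 2.01 for Gzmb, -0.0949 to 1.44 for Ncr1, -0.28 to 0.72 for Nkg7 and -0.87 to 0.12 for Prf1. The range for diet in IEL was -1.80 to 0.47 for Ncr1 and -0.65 to 1.27 for Nkg7. The range for diet in LP was -1.24 to 1.15 for Fasl, -2.08 to 0.23 for Gzma, -1.07 to 0.39 for Klrd1, -1.96 to 0.0102 for Klrk1 and -0.78 to 1.31 for Prf1. The range for the difference of the diet effects was -0.28 to 4.69 for Ccl5, -0.0993 to 2.51 for Klrd1 and -0.000901 to 1.92 for Nkg7. 

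The number of genes called between the layers was 110 with limma, 30 without the filter, 58 with a pseudocount of 0.1, 237 with upper quartile scaling, 826 without the 2 libraries with the fewest genes, 1 with only the PA libraries, and 37 to 521 when 1 library was left out (lowest without ND IEL 2, highest without PA LP 2). For diet in IEL it was 0, and 0 to 1 with 1 library left out. For diet in LP it was 0, 2 with upper quartile scaling, 3 with limma-voom and 0 to 8 with 1 library left out (highest without PA LP 3). Upper quartile scaling moved the median of all genes from -0.30 to -0.10 for diet in IEL, from -0.08 to 0.05 between the layers and from -0.03 to -0.28 for the difference of the diet effects.

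Groups share replicate numbers, but the deviations of same-numbered libraries correlated at -0.03 to 0.06 between layers and -0.12 to 0.07 between diets, so the libraries were not treated as paired. The labels do not say whether same-numbered libraries share a mouse. With the number as a replicate block, 29 genes were called between the layers, 3 for diet in LP and 1 for the difference of the diet effects, and 0 of the members in any comparison.

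At 8.79 to 14.6 M reads a library, 63 of 120 member values lay at or under 3 reads, for counting error only, and have no order among them. With 3 libraries a group, the members' SEs were 0.70 to 3.34 on the log2 scale, so that large differences could go uncalled.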
